A study of Mus musculus with 2 samples.

Results

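The genes Ifitm1, Ifitm2, Ifitm3 and Mcpt8, 4 of the 27998 genes listed in both tables, were taken by symbol from single-cell libraries of natural killer (NK) cells of mouse tumors. They were chosen from the same measurements, because few cells held most of their transcripts and because Ifitm1 and Mcpt8 were among the genes furthest apart between the libraries. Their differences between the libraries are therefore a description. The questions were which cells carried these transcripts, whether the same cells carried several of them, and whether the carriers bore the markers of NK cells, of basophils or of both.

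The KO library came from mice with Hif1a, a subunit of the hypoxia-inducible transcription factor, deleted in NK cells, and the WT library from wild-type mice. In both, RMA-S cells, mouse lymphoma cells that show little MHC class I on their surface, had been injected under the skin 2 weeks before the tumors were taken, and cells without surface CD3ε and with surface NK1.1 had been sorted for a 10x Chromium 3′ library, which counts each captured transcript once by a unique molecular identifier (UMI). The labels give neither the number of mice, nor their age or strain, nor the transgene used for the deletion. There was 1 library per genotype, so nothing below has a replicate check, and no p-value is given.

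Interferon-induced transmembrane proteins are small membrane proteins that hinder the fusion of enveloped viruses with the cell, and their genes are known targets of interferon. Mcpt8 encodes mast cell protease 8, a serine protease used as a marker of mouse basophils. It lies in a cluster of related protease genes that also holds Ctsg, for cathepsin G, a protease known from neutrophil granules, and granzyme genes, whose products are known from the granules of cytotoxic lymphocytes. Basophils are also known by the chains of the high-affinity IgE receptor (Fcer1a and Ms4a2), the protease gene Prss34 and the transcription factor Gata2.

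On GRCm38 (GENCODE M21), Ifitm2 lies on chromosome 7 from 140954837 to 140955987 on the minus strand, Ifitm1 from 140967221 to 140969825 on the plus strand and Ifitm3 from 141009586 to 141010770 on the minus strand. Mcpt8 lies on chromosome 14 from 56082166 to 56085273 on the minus strand. The next listed protease gene beside it is Ctsg, 14.61 kb away, followed by Gzme, Gzmd, Gzmg, Gzmn, Gzmf, Gzmc and Gzmb. The promoters are shown because the Ifitm genes and Mcpt8 were found together in some cells. Each is the RefSeq window of 300 bases (GRCm38.p6), from 250 bases before to 50 bases after the table's start site, read on the gene's own strand. Capitals mark matches to GAAANNGAAA, the core of the interferon-stimulated response element, searched on both strands.
Ifitm1 (chr7:140967826-140968125, plus strand): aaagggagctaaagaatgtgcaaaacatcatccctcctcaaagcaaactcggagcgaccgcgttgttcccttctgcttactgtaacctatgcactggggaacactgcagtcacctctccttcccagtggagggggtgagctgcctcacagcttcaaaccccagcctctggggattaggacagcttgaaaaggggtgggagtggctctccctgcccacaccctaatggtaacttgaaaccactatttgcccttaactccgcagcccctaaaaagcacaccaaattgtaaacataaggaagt
Ifitm2 (chr7:140955912-140956211, minus strand): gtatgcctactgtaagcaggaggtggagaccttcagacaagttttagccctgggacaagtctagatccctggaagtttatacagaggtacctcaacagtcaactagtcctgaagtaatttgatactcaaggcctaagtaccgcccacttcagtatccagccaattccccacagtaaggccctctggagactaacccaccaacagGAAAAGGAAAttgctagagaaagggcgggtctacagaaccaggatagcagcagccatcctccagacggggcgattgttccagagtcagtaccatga
Ifitm3 (chr7:141010695-141010994, minus strand): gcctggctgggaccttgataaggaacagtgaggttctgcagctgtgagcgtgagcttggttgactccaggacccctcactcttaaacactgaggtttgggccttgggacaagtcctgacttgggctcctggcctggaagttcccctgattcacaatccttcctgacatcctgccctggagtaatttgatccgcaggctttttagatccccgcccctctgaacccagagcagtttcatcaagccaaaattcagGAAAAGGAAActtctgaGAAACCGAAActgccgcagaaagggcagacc
Mcpt8 (chr14:56085148-56085447, minus strand): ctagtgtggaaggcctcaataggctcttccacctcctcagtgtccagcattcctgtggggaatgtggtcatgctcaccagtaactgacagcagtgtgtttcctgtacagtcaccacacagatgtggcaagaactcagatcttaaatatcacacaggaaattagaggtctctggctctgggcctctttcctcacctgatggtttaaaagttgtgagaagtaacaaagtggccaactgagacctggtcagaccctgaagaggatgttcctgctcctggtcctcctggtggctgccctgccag
Ifitm3 had 2 matches, starting 2 and 19 bases past the start site, and Ifitm2 had 1, starting at position -46. Ifitm1 and Mcpt8 had 0 in these windows. The RefSeq start site of Ifitm1 lies 855 bases inside the GENCODE gene given above, so the bases before the GENCODE start were not searched. For the other 3 the offset was 26, 26 and 76 bases (Ifitm2, Ifitm3 and Mcpt8). Of 32851 RefSeq promoter windows of this length, 3.44% held a match.

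The 3 Ifitm genes also resemble each other and several gene copies at the end of the transcript that these libraries read. Of the 451 distinct 50-base words in the last 500 bases of GENCODE transcripts, 53 of Ifitm1, 189 of Ifitm2 and 63 of Ifitm3 also occurred in another gene, among them 20 shared by Ifitm2 and Ifitm3. Counts of these 3 genes are uncertain wherever reads could be shared out between copies. One such copy, the processed pseudogene Gm7676 (named after its values were seen), which shares 39 words with Ifitm1, had 9 UMIs in the KO library and 111 UMIs in the WT library. Of Mcpt8's words, 0 of 504 were shared with another gene.

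The filter left 3067 KO cells with a median of 3793 UMIs and 3555 WT cells with a median of 4440 UMIs. Cells with at least 10000 UMIs numbered 75 KO and 252 WT, so depth differed between the libraries at the high end. The NK1.1 gene Klrb1c was detected in 89.3% of KO and 92.7% of WT cells, and the granule protein gene Nkg7 in 99.3% and 99.7%. Hif1a had 800 UMIs (60.5 CPM, counts per 1e+06 UMIs) in the KO library and 1132 UMIs (58.2 CPM) in the WT library. These 3′ counts thus do not separate the labelled genotypes, and the labels do not say which part of the gene was deleted. The libraries shared 19 cell barcodes.

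Ifitm1 and Mcpt8 were furthest apart, in an order that depended on the added CPM. Ifitm1 had 67 UMIs (5.07 CPM) in the KO library and 1788 UMIs (91.9 CPM) in the WT library. Its log2 ratio of KO over WT was -3.94 with 1 CPM added to both (95% counting interval without it, -4.55 to -3.83). Mcpt8 had 10 UMIs (0.756 CPM) in the KO library, against 301 UMIs (15.5 CPM) in the WT library, so its log2 ratio was -3.23 (-5.43 to -3.46). With 0.1 CPM added the ratios were -4.15 for Ifitm1 and -4.18 for Mcpt8. Ifitm2 had 199 UMIs (15.1 CPM) in the KO library and 1238 UMIs (63.6 CPM) in the WT library, so its log2 ratio was -2.01 (-2.30 to -1.86). Ifitm3 was closest, with 147 UMIs (11.1 CPM) in the KO library, 285 UMIs (14.6 CPM) in the WT library and a log2 ratio of -0.37 (-0.69 to -0.11). The sign for Ifitm3 turned without the 3% of cells with most UMIs (0.11), as a mean of CPM over cells (0.10), in cells with at least 10000 UMIs (0.15) and without the cluster led by Gzmc to Gzmg described below (1.01), and without that cluster Ifitm2 stood at -0.18. Ifitm1, Ifitm2 and Mcpt8 were thus lower in KO cells by 2-fold or more, as were 0.932% of the 8155 genes that reached 200 UMIs over both libraries. In KO cells, 1.45% were higher by 2-fold or more, and the median log2 ratio of all was 0.04. The members' direction had been known when they were chosen. These intervals cover counting error only and take UMIs as independent, which the next values show they were not.

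Few cells held most of these UMIs. In the KO library, Ifitm1 was detected in 15 cells (0.489%; exact interval 0.274 to 0.805), Ifitm2 in 53 cells (1.73%), Ifitm3 in 29 cells (0.946%) and Mcpt8 in 3 cells (0.0978%). In the WT library, Ifitm1 was detected in 275 cells (7.74%; 6.88 to 8.66), Ifitm2 in 225 cells (6.33%), Ifitm3 in 87 cells (2.45%) and Mcpt8 in 67 cells (1.88%). After thinning each cell to 2500 UMIs, which left out 418 KO and 92 WT cells as too shallow, the shares were 0.302% of KO and 4.04% of WT cells for Ifitm1, 0.982% and 3.78% for Ifitm2, 0.680% and 1.21% for Ifitm3, and 0.113% and 1.01% for Mcpt8. Each share stayed lower in the KO library.

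Most carriers held a single UMI. Of the WT carriers, 230 of 275 for Ifitm1, 175 of 225 for Ifitm2, 55 of 87 for Ifitm3 and 43 of 67 for Mcpt8 had 1 UMI. Across the 10 clusters of at least 20 cells, the share of WT cells with exactly 1 Ifitm1 UMI lay between 3.82% and 13.0%, with a median of 7.04%, was highest in the deep cluster led by Gzmg (median 13386 UMIs) and was 7.69% in the T-like cluster (9 of 117 cells, median 4726 UMIs, against a library median of 4440). In KO clusters this share lay between 0% and 1.16%. Over the same WT clusters the share with exactly 1 UMI lay between 0.855% and 11.5% for Ifitm2, 0% and 8.40% for Ifitm3, and 0.318% and 5.56% for Mcpt8. How much of this came from transcripts free in the droplet fluid was not tested, and single UMIs are not read here as expression by the cell. Cells with at least 5 UMIs of a member, called strong carriers below, are a range and not a cell type. This cut is on UMIs and not on their share of the cell, so deep cells reach it more easily.

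For Ifitm1, 3 KO and 28 WT cells were strong carriers, the highest with 27 UMIs among KO and 133 UMIs among WT cells. For Ifitm2 there were 9 KO and 35 WT strong carriers, with up to 33 and 112 UMIs, for Ifitm3 5 KO and 15 WT, with up to 47 and 36 UMIs, and for Mcpt8 1 KO and 13 WT, with up to 8 and 38 UMIs. The WT strong carriers held 85.0% of the Ifitm1, 83.0% of the Ifitm2, 63.5% of the Ifitm3 and 76.4% of the Mcpt8 UMIs of their library. The 10 KO cells with most held 92.5% of Ifitm1, 75.4% of Ifitm2 and 87.1% of Ifitm3 UMIs, and the 3 KO carriers held all of Mcpt8. The 10 WT cells with most held 56.8% of Ifitm1, 48.7% of Ifitm2, 53.7% of Ifitm3 and 70.4% of Mcpt8 UMIs. Genes for which 10 cells held at least 50% were rare, 0.362% of 7729 KO genes and 0.224% of 8481 WT genes with at least 100 UMIs, and the members were chosen for this property. For WT genes of 300 to 1000 UMIs the median share was 5.48%.

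**Figure D1:**
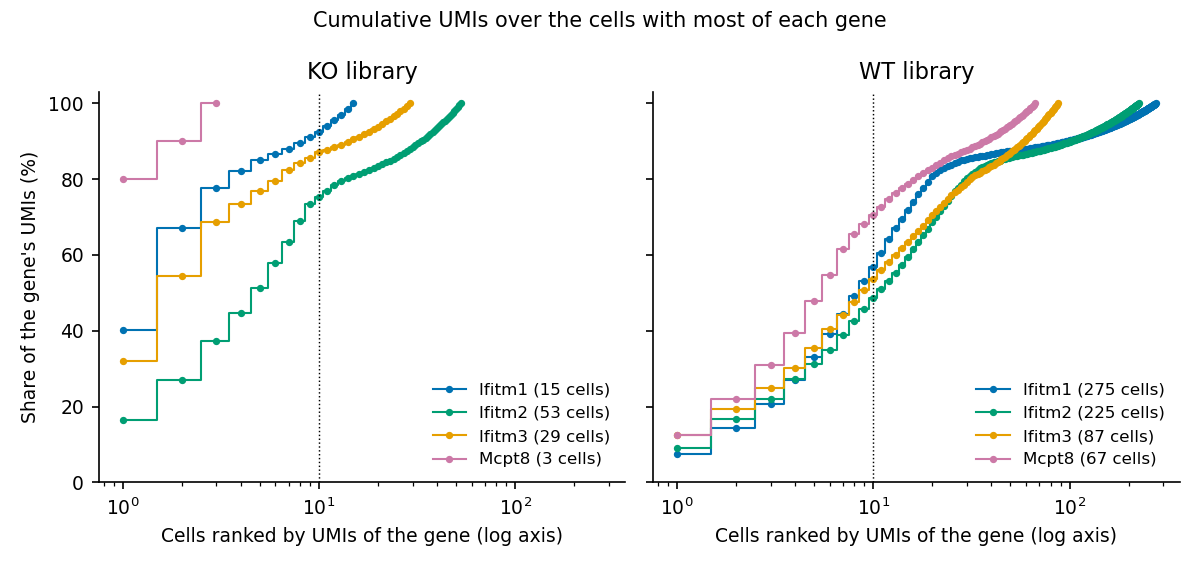
Cumulative share of each gene's UMIs (vertical axis, percent) over cells ranked by their UMIs of that gene (horizontal log axis), in the KO library (left) and the WT library (right), 1 point per carrier cell. At the dotted line, 10 cells, the KO curves lie between 75.4% and 92.5% for the Ifitm genes, the KO Mcpt8 curve has ended after 3 cells, and the WT curves lie between 48.7% and 70.4%.

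The members were found together in most strong carriers and in few of the other carriers. Strong carriers were also deeper, with a WT median of 22181 UMIs against 5271 UMIs for all WT carriers. The share with another member was not compared at equal depth. Ifitm2 was found in 18.2% of all WT Ifitm1 carriers and in 5.34% of the WT cells without Ifitm1. In the KO library, 8 of 12 strong carriers of any member held at least 1 other member, and in the WT library 42 of 43 did. Over all carriers, 12 of 85 KO cells and 67 of 535 WT cells held more than 1 member. All 4 were detected in 0 KO and 15 WT cells. Of the 28 WT strong carriers of Ifitm1, 28 also had Ifitm2, 20 had Ifitm3 and 14 had Mcpt8. Of the 13 WT strong carriers of Mcpt8, 12 had Ifitm2, 9 had Ifitm1 and 8 had Ifitm3.

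The proportions of the genes differed between single cells. The WT cell with most Ifitm1 (133 UMIs) also had 49 Ifitm2, 3 Ifitm3 and 8 Mcpt8 UMIs. The WT cell with most Mcpt8 (38 UMIs) had 3 Ifitm1, 11 Ifitm2 and 5 Ifitm3 UMIs. A WT cell with 20 Mcpt8 UMIs had 0 of any Ifitm gene listed here, and another with 112 Ifitm1 and 67 Ifitm2 UMIs had 1 of Mcpt8. The KO cell with most Ifitm3 (47 UMIs) had 2 Ifitm1 and 21 Ifitm2 UMIs. Ifitm1 and Mcpt8 were therefore not in 1 ratio over these cells. Across 3555 WT cells the Pearson correlation of log-scaled counts was 0.37 for Ifitm1 with Ifitm2, 0.35 for Ifitm2 with Ifitm3 and 0.27 for Ifitm1 with Ifitm3, and 0.20 to 0.25 for Mcpt8 with the 3 Ifitm genes. These values rest on sparse counts from cells of 1 library that differ in depth. In the 252 WT cells with at least 10000 UMIs they were 0.73, 0.75 and 0.62 among the Ifitm genes.

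No carrier bore a set of basophil markers. All 85 KO and all 535 WT carriers had at least 3 of 14 NK markers, as had 2981 of 2982 KO and 3020 of 3020 WT cells without a member UMI and all 9 KO cells with macrophage or neutrophil markers described below, so this count does not set the carriers apart. The levels of these NK genes did differ. Of the 14, 11 were lower in the strong carriers than in the other cells, in both the KO and the WT library. How many of all genes were lower there is not given here, so the count only describes this list. Ccl5, a chemokine gene, stood at 3499.65 CPM in the WT strong carriers, 11011 CPM in the 216 WT cells with at least 10000 UMIs and no strong member, and 28028 CPM in all WT cells other than strong carriers. Klra8, an NK receptor gene, stood at 172, 484 and 874 CPM in the same sets, and Klrb1c at 251, 419 and 747 CPM. Gzma, Gzmb and the perforin gene Prf1 were the 3 that were higher in WT strong carriers than in other WT cells, Gzmb at 9132 against 2462 CPM. Not 1 cell of either library had 3 of the 17 basophil markers other than Mcpt8. For the 67 WT carriers of Mcpt8, 0 with 3 basophil markers allows a share of up to 5.36%, and for all 535 WT carriers up to 0.687% (exact 95% upper bounds), but most of these cells held a single UMI. For strong carriers the bounds are wider, at up to 24.7% for 0 of the 13 WT strong carriers of Mcpt8 and 8.22% for 0 of the 43 WT strong carriers of any member. The defining markers Fcer1a, Ms4a2, Prss34 and Gata2 were at 0 in both libraries, as was Il4 of the same list. In all, 6 KO and 8 WT markers of the list were at 0. The list summed to 30.1 CPM over KO cells and 26.6 CPM over WT cells, mostly through Il3ra, an interleukin-3 receptor chain, with 295 KO and 417 WT UMIs. Cpa3, a mast cell and basophil carboxypeptidase gene, had 27 UMIs in 12 KO cells and 49 UMIs in 18 WT cells, 2 of them Mcpt8 carriers. Alox5, also of the basophil list, did lie mostly in the carriers of the WT library. It had 16 UMIs in 9 WT cells, of which 8 were strong carriers with 15 of these UMIs and 5 carried Mcpt8. In the KO library it had 1 UMI. The mast cell protease genes Mcpt1, Mcpt2, Mcpt4, Tpsb2 and Tpsab1 were at 0 in both libraries.

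In the WT library most strong carriers were deep cells, and 25 of the 43 had at least 1% of their UMIs from the granzyme genes Gzmc to Gzmg. The other 18 lay below 1%, 12 of them below 0.2%. Of the 43, 36 had at least 10000 UMIs, and their median was 22181 UMIs, against a library median of 4440. They had a median of 381 UMIs of Gzmc, Gzmd, Gzme, Gzmf and Gzmg together, or 1.83% of the cell's UMIs, and 38 of 43 fell in an NK-like cluster led by Gzmg, Gzmf, Gzme and Gzmd and the histone gene Hist1h2ap. The clusters had been made without the 4 members. Of the 216 WT cells with at least 10000 UMIs and no strong member, 64 fell in the cluster led by Gzmg too. Their granzyme content as a set was lower. Thinned to 2500 UMIs, the WT strong carriers kept a median of 49 Gzmc to Gzmg UMIs, against 0 in these 216 cells. Both sets had a median of 9 NK marker genes detected at that depth. A pair of cells in 1 droplet would also raise the UMIs of a barcode, and doublets were neither called nor removed here, so their part in these values was not tested.

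Of the 7 WT strong carriers under 10000 UMIs, 2 were rich in Mcpt8. One held 28 Mcpt8 UMIs among 3331 UMIs in all, 9 Ifitm1 UMIs and 10.0% Gzmc to Gzmg. The other held 26 Mcpt8 UMIs among 2880 UMIs, 8 Ifitm1 UMIs and 10.3% Gzmc to Gzmg. Both lay below the library's median depth, with 5 and 6 of the 14 NK markers and 0 of the basophil markers. The only KO cell with more than 1 Mcpt8 UMI had 8 of them, with 18 Ifitm1 and 11 Ifitm2 UMIs, 16.3% Gzmc to Gzmg and 11399 UMIs in all.

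**Figure D2:**
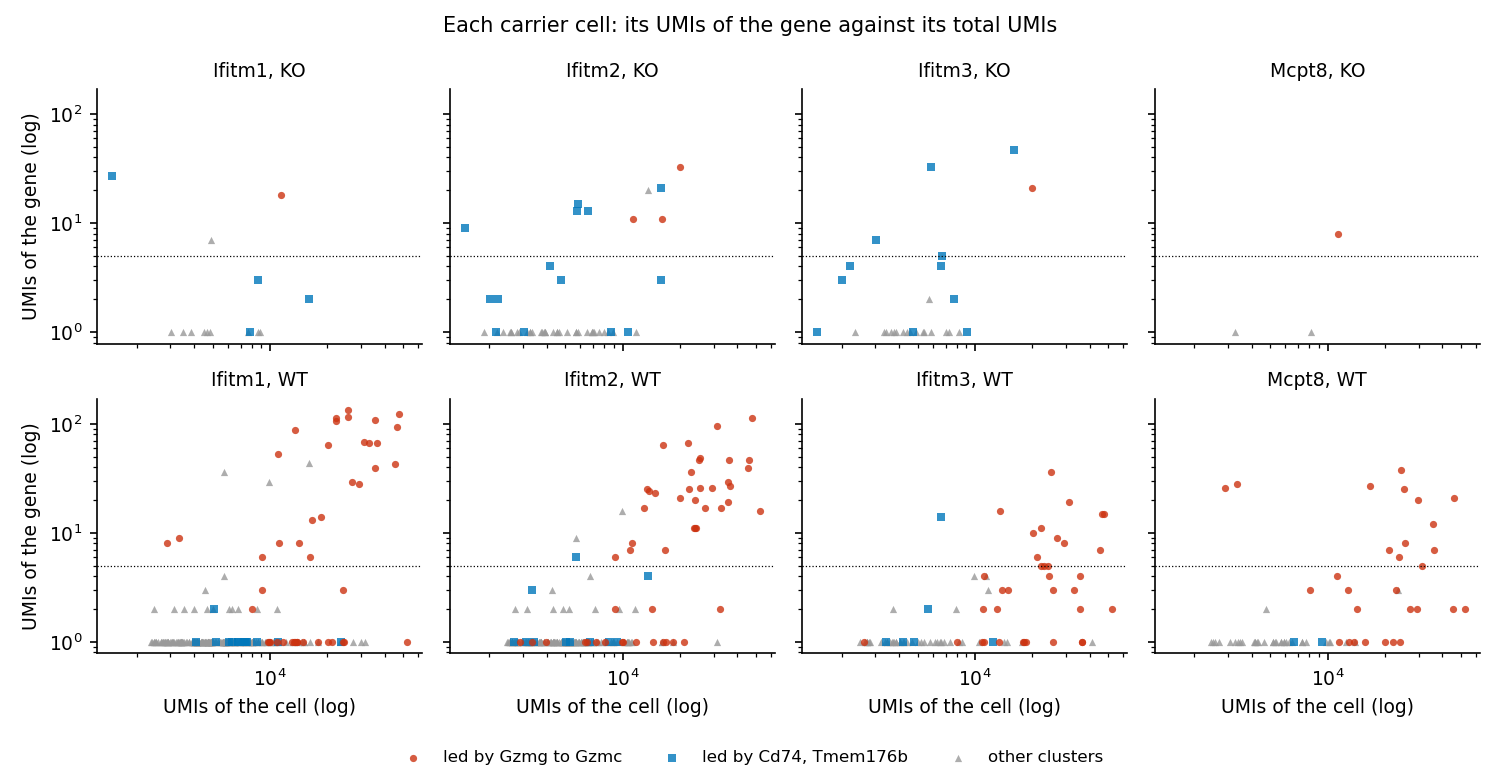
Each point is 1 carrier cell, with its UMIs of the named gene (vertical log axis) against its total UMIs (horizontal log axis), in the KO (top) and WT (bottom) libraries, with the cluster shown by colour and shape. Above the dotted line at 5 UMIs, 36 of the 43 WT cells have at least 10000 UMIs and 38 lie in the cluster led by Gzmg to Gzmc, while the KO Ifitm3 cells are mostly of the cluster led by Cd74.

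Mcpt8 followed the granzyme genes more closely than the Ifitm genes did. In the 8 KO cells with at least 1% of UMIs from Gzmc to Gzmg, Mcpt8 stood at 88.1 CPM (counting interval 38.0 to 174), all of it in 1 cell, and in the 40 such WT cells at 323 CPM (285 to 366), with 23 carriers. These 40 cells held 82.7% of the WT library's Mcpt8 UMIs, but 49.0% of its Ifitm1, 46.9% of its Ifitm2 and 47.7% of its Ifitm3 UMIs. In KO cells under 1% with at least 10000 UMIs, 0 Mcpt8 UMIs were found, and in such WT cells 5.51 CPM. For Ifitm1 the 8 KO cells with at least 1% gave 198 CPM, all 18 UMIs being of 1 cell, and the 40 WT cells 1139 CPM, while among deep cells under 1% the 70 KO cells gave 1.96 CPM and the 224 WT cells 189 CPM. Ifitm2 stood at 628 CPM in KO and 755 CPM in WT cells with at least 1%, where the counting intervals overlapped, and at 44.1 and 136 CPM in the deep cells under 1%. These KO values for Ifitm2 rest on 5 carriers, 3 of them strong, and on 4 carriers, 2 of them strong. In the deep KO cells under 1%, 21 of the 45 Ifitm2 UMIs were of 1 cell with 9 macrophage markers. Ifitm3 stood at 231 CPM in KO and 177 CPM in WT cells with at least 1%, where the intervals overlapped, and at 46.0 and 26.3 CPM in deep cells under 1%. Each of these KO values rests on 1 cell, with 21 and 47 Ifitm3 UMIs, and the cell with 47 had 9 macrophage markers. The boundary of 1% cuts a range: 4 KO and 19 WT cells lay between 0.5% and 1%, and 4 KO and 12 WT cells between 1% and 2%.

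**Figure D3:**
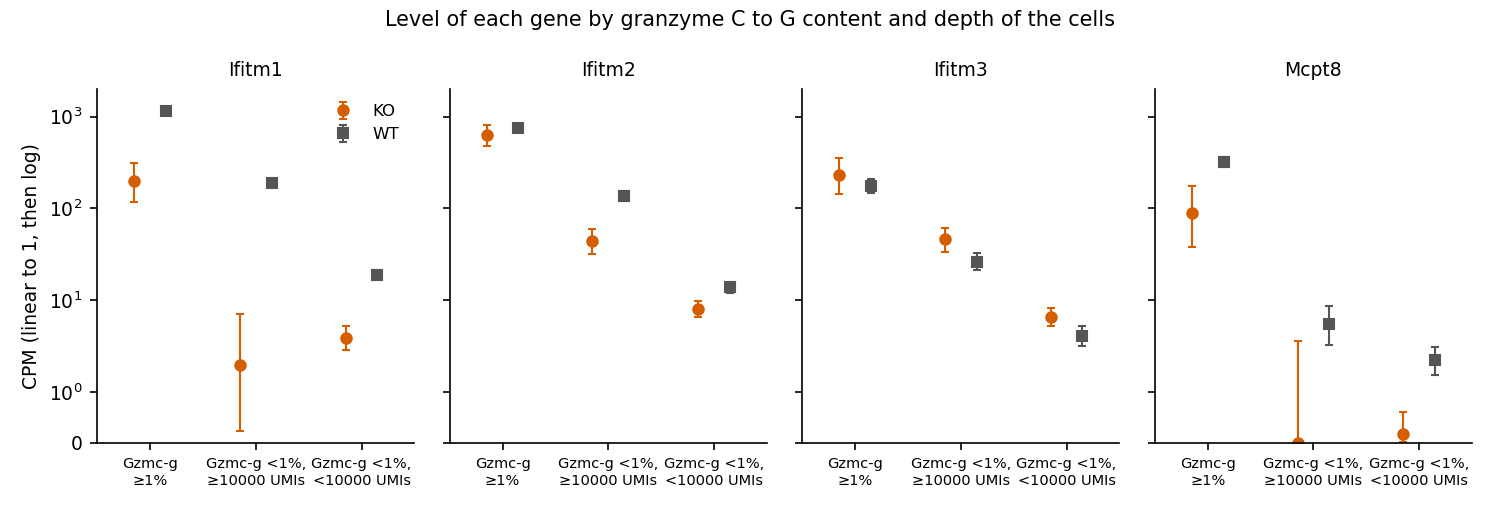
Level of each gene (CPM, linear to 1 and logarithmic above) in KO (left of each pair) and WT cells, split by the share of UMIs from Gzmc to Gzmg and by depth, with exact 95% Poisson intervals of the counts. Ifitm1 and Mcpt8 lie lower in the KO library in all 3 sets. Ifitm3 lies higher there, but in the 2 sets of granzyme-rich and deep cells the KO value is that of 1 cell, and 95 of its 147 KO UMIs are in the 9 cells with macrophage or neutrophil markers, without which its log2 ratio over all cells is -1.66.

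Of the 8 genes whose counts ran most alike with Mcpt8 over the 3555 WT cells, 5 lie in the same protease cluster, by the highest Pearson correlation among genes found in at least 10 cells. Ctsg came first at 0.53, then Gzme at 0.44 and Gzmg at 0.43, followed by Tmem119 (0.40), Gzmf (0.36), Basp1 (0.36), Gzmd (0.35) and Myo10 (0.32). Tmem119, Basp1 and Myo10 are not of that cluster. In the 252 WT cells with at least 10000 UMIs the order of these 8 was another, with Gzmg at 0.77, Gzme at 0.74, Gzmd at 0.71 and Gzmf at 0.67 first and Ctsg last at 0.38. Ctsg had 37 UMIs in 3 KO cells and 84 UMIs in 21 WT cells, and 10 of those 21 carried Mcpt8. Cma1, a chymase gene of the same protease cluster, was found much more widely, at 429 CPM in 1754 KO cells and 223 CPM in 1671 WT cells, and in 28 of the 67 WT Mcpt8 carriers. For Ifitm1 the most alike genes were Ifitm7 (0.37), Ifitm2 (0.37), the actin-severing protein gene Scin (0.29), Ctsg (0.27) and Ifitm3 (0.27). Gzme, Ltb4r1, a leukotriene B4 receptor gene, and Basp1 were among the first 8 for all 3 Ifitm genes, and Epas1, which encodes the hypoxia-inducible factor 2α subunit, was among those for Ifitm3 (0.24). All of these correlations share the depth of the cells.

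Other genes of the Ifitm family were mostly near 0 or ran differently. Ifitm7 had 0 UMIs in the KO library and 16 UMIs in 11 WT cells, all of them strong carriers. Ifitm6 had 12 UMIs in 2 KO cells, both strong carriers, and 0 in the WT library, and Ifitm5 had 1 and 0 UMIs. Ifitm10 was spread over many cells, with 837 UMIs in 689 KO cells and 1123 UMIs in 882 WT cells. Of 18 interferon-response genes that reached 200 UMIs, 0 differed by 2-fold or more between the libraries with 1 CPM added, with a median log2 ratio of 0.16. Over all 8155 genes that reached 200 UMIs, 0.932% were lower and 1.45% higher by as much in KO cells. A count of 0 of 18 thus does not set this list apart. Isg15, which encodes a ubiquitin-like protein induced by interferon, had 56.0 CPM in KO cells and 27.5 CPM in WT cells, just over 2-fold apart without the added CPM and just under with it (log2 ratio 0.999). Within the WT library, 16 of these 18 genes were lower in the strong carriers than in the other cells, for example Irf7, an interferon regulatory factor gene, at 18.6 against 48.3 CPM. The share of all genes that were lower there is not given here, so this count does not set the list apart. Bst2, which encodes a membrane protein that tethers viruses, was higher there, at 123 against 65.4 CPM, as was Oas1a. Deep cells in general had fewer of these UMIs: thinned to 2500 UMIs, the interferon-response genes averaged 1.51 UMIs per WT strong carrier, 1.505 in WT cells with at least 10000 UMIs and no strong member, and 1.92 in all WT cells other than strong carriers.

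Granzyme genes and part of the cell-cycle genes were also lower in KO cells. Of 9 granzyme genes that reached 200 UMIs, 6 were lower in KO cells by 2-fold or more and 0 were higher by as much, with a median log2 ratio of -1.52. Among all 8155 genes that reached 200 UMIs, 0.932% were lower and 1.45% higher by as much. Gzmd had 70.3 CPM in KO cells and 323 CPM in WT cells, and Gzme had 23.4 and 142 CPM. Gzma and Gzmb were close between the libraries, with 13012 CPM in KO and 11988 CPM in WT cells for Gzma, and 2724 and 2794 CPM for Gzmb. Of 24 genes of DNA synthesis and mitosis, 12 were lower in KO cells by 2-fold or more and 0 were higher by as much, with a median of -0.94, beside the same 0.932% and 1.45% of all genes. All 24 stood higher in the WT strong carriers than in the other WT cells, but by uneven amounts. Mki67 stood at 72.3 against 17.4 CPM, while Pcna stood at 123 against 112 CPM. Top2a (named after its values were seen) was nearly equal, at 52.7 against 52.0 CPM. No share of all genes higher there is given beside this count. Thinned to 2500 UMIs, their UMIs averaged 7.42 per WT strong carrier, 12.1 in WT cells with at least 10000 UMIs and no strong member, and 3.35 in all WT cells other than strong carriers. The same means were 2.27 (11 cells), 7.41 and 2.55 in the KO library, where 5 of the 12 strong carriers had at least 10000 UMIs. As medians, the WT strong carriers and the deep WT cells without a strong member both had 5 UMIs. In the KO library these medians were 1 and 3 UMIs.

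The KO library's Ifitm UMIs lay in part elsewhere. Of its 12 strong carriers, 7 fell in a cluster led by Cd74 and other MHC class II genes and Tmem176b, which in the WT library held 2 of 43, and 3 fell in the cluster led by Gzmg to Gzmc. By its markers the cluster led by Cd74 was named ILC1 or ILC2-like, after innate lymphoid cells. At least 3 of the 11 ILC1 or ILC2 markers were found in 4 of the 12 KO strong carriers. The same held for 82 of 2982 KO cells without a member UMI and for 11 of 70 deep KO cells without a strong member. In the WT library it held for 2 of 43 strong carriers. In the cluster led by Cd74, Ifitm3 stood at 180 CPM in 106 KO cells and 24.3 CPM in 145 WT cells, Ifitm2 at 149 and 25.5 CPM, and Ifitm1 at 55.1 and 18.2 CPM. In the cluster led by Gzmg to Gzmc, Ifitm1 stood at 68.7 CPM in 20 KO cells and 692 CPM in 131 WT cells, Ifitm2 at 210 and 491 CPM, Ifitm3 at 80.1 and 101 CPM, and Mcpt8 at 30.5 and 125 CPM. Of the WT library's UMIs, 80.3% of Ifitm1, 82.1% of Ifitm2, 73.7% of Ifitm3 and 86.4% of Mcpt8 lay in this cluster. Of the KO library's UMIs, 26.9% of Ifitm1, 27.6% of Ifitm2, 14.3% of Ifitm3 and 80% of Mcpt8 did. The cluster led by Cd74 held 49.3% of KO Ifitm1, 44.7% of Ifitm2, 73.5% of Ifitm3 and 0% of Mcpt8 UMIs. In the other 8 clusters of at least 20 cells, Ifitm1 was lower in the KO library in each (the counting interval included no difference in 1), and most carriers there held a single UMI. Mcpt8 had 0 to 2 KO and 1 to 10 WT UMIs there, too few to compare.

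**Figure D4:**
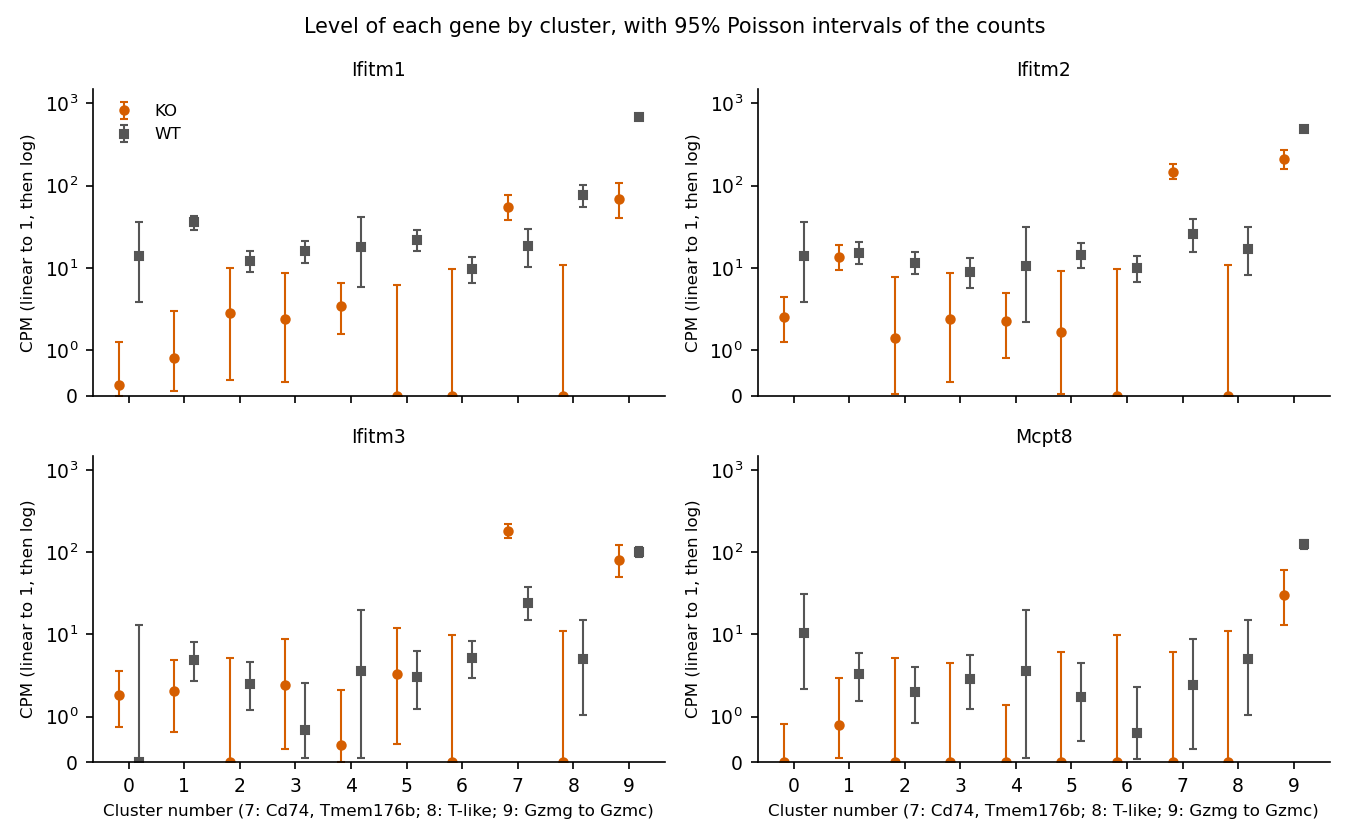
Level of each gene (CPM, linear to 1 and logarithmic above) by cluster in KO (left of each pair) and WT cells, with exact 95% Poisson intervals of the counts. The highest WT levels are in cluster 9, led by Gzmg to Gzmc, and the KO levels of Ifitm1, Ifitm2 and Ifitm3 exceed the WT levels in cluster 7, led by Cd74.

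A few KO barcodes with markers of macrophages or neutrophils carried much of this. In the KO library 9 cells had at least 3 of 13 macrophage markers (8 cells) or at least 3 of 10 neutrophil markers (1 cell), and all 9 also had at least 3 NK markers. In the WT library 2 cells had 3 macrophage markers. The 9 KO cells held 95 of 147 Ifitm3 UMIs (64.6%), 29 of 67 Ifitm1 UMIs (43.3%) and 50 of 199 Ifitm2 UMIs (25.1%), but 0 of 10 Mcpt8 UMIs. One of them, with 1480 UMIs in all, had 27 Ifitm1 UMIs and 134 UMIs of the neutrophil gene S100a8. The macrophage list summed to 85.8 CPM in the KO library, with 0 of its 13 genes at 0, and to 27.4 CPM in the WT library, with 1 at 0. Lyz2, the macrophage and neutrophil lysozyme gene, had 517 KO UMIs, 446 of them in strong carriers, and 21 WT UMIs. Without these cells the log2 ratio was -1.66 for Ifitm3, with 52 KO and 285 WT UMIs, against -0.37 with them, and it was -4.58 for Ifitm1, -2.39 for Ifitm2 and -3.23 for Mcpt8. In the cluster led by Cd74, the same step left Ifitm3 at 23.1 CPM in KO and 24.3 CPM in WT cells, Ifitm1 at 7.12 and 18.2 CPM, and Ifitm2 at 69.4 and 25.5 CPM.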

How the data were processed

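Both libraries were deposited as tables of raw UMI counts, whole numbers for each gene in each barcode, as the values deposited by the authors show. The submitters' processing notes name Cell Ranger 2.0.2, Seurat and mm10, and give no roles. Which annotation was used, how cells were called and whether doublets were removed is not given in the sources used here, and no doublet caller was run. There were 3110 KO barcodes with 13407906 UMIs and 3574 WT barcodes with 19553440 UMIs. Cells needed 500 or more detected genes and no more than 10% mitochondrial UMIs.

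UMIs were summed over kept cells and scaled to CPM, per 1e+06 UMIs. Ratios are log2 values, KO over WT, after adding 1 CPM to each. Exact 95% Poisson, conditional binomial and binomial (Clopper-Pearson) intervals cover counting error only, since cells of 1 library are not replicates and UMIs are clustered in few cells. The KO and WT cells were clustered jointly in scanpy 1.11.5 (2000 variable genes without the 4 members, 30 components, 15 neighbours, Leiden resolution 0.8). A cluster was called X-like only from marker lists. Hemoglobin and other marker genes found in every cluster of at least 20 cells, at shares that could differ several-fold, were not counted for other classes. Among these, Hba-a2, Hba-a1 and Hbb-bs were leading genes of a cluster called NK-like. Cluster names were rebuilt here, since no cell annotation was used.

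Strong carriers have at least 5 UMIs of a member, and thinning took 2500 UMIs per cell without replacement. Most alike genes are the 8 with the highest correlation of log1p counts per 10000 over WT cells, leaving out Xist, Y-linked, antigen receptor and unnamed genes. Genes with the most UMIs of the marker and gene lists were also named, and others are said to have been named after their values were seen. The members, lists and markers were chosen with earlier results of these data known. The ratios, intervals, top-10 shares and thinning were tested on simulated counts. Those drawn for the ratios and intervals were independent UMI sums, which the members' UMIs were not. That test therefore does not bear on the intervals of the members.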

Additional observations from a re-analysis of the deposited data

Results flagged for a closer look

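Ifitm1 and Ifitm2 differed between KO and WT cells in opposite directions in 2 clusters. In the cluster led by Cd74 and Tmem176b the log2 ratio of KO over WT was 1.55 for Ifitm1 (counting interval 0.68 to 2.58, with 33 KO and 15 WT UMIs) and 2.497 for Ifitm2 (1.84 to 3.30, with 89 KO and 21 WT UMIs). In the cluster led by Gzmg to Gzmc it was -3.32 for Ifitm1 (-4.09 to -2.67) and -1.22 for Ifitm2 (-1.64 to -0.83). The difference between the clusters was not tested, since each genotype had 1 library. Without the cells with at least 3 macrophage or neutrophil markers, the ratio in the cluster led by Cd74 was -1.24 for Ifitm1, with 4 KO and 15 WT UMIs, and 1.41 for Ifitm2, with 39 KO and 21 WT UMIs. The clusters had been made from these cells, so both are descriptions of them.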

How the results depend on the processing

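The log2 ratio of KO over WT kept its sign for Ifitm1, Ifitm2 and Mcpt8 under each of the 16 alternatives tried, while that of Ifitm3 turned in 4. It gave 0.11 without the 3% of cells with most UMIs, 0.10 as a mean of CPM over cells, 0.15 in cells with at least 10000 UMIs only and 1.01 without the cluster led by Gzmc to Gzmg. Without those deepest 3%, Ifitm1 gave -2.57 and Ifitm2 -1.07, and without that cluster Ifitm1 gave -2.16, Ifitm2 -0.18 and Mcpt8 -1.54. In NK-like clusters only, the ratios were -4.69 for Ifitm1, -2.79 for Ifitm2 and -1.89 for Ifitm3. They were -4.70, -2.77 and -1.90 without the cluster led by Cd74 and Tmem176b, -4.58, -2.39 and -1.66 without cells with macrophage or neutrophil markers, and -4.90, -2.85 and -1.69 without the 10 cells with most UMIs of the gene. With 5 CPM added, Ifitm1 gave -3.27, Ifitm2 -1.77 and Mcpt8 -1.83. As a mean over cells, Ifitm1 gave -2.05 and Ifitm2 -1.14. Ifitm1 gave -4.49 with stricter cell filters, and Ifitm2 gave -1.48 in cells with at least 10000 UMIs and -1.22 after thinning. The choices on deep cells only, the clusters left out, shared barcodes, single UMIs and the macrophage or neutrophil markers were made after seeing the data. The cause of each move was not tested.

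With at least 2 UMIs required, the share of cells was 0.163% in KO and 1.27% in WT cells for Ifitm1, 0.456% and 1.41% for Ifitm2, 0.326% and 0.900% for Ifitm3, and 0.675% in WT cells for Mcpt8. After thinning, the moved shares were 0.982% in KO and 3.78% in WT cells for Ifitm2, and in WT cells 4.04% for Ifitm1, 1.21% for Ifitm3 and 1.01% for Mcpt8. Without the deepest 3%, the WT shares were 6.87%, 5.45%, 1.68% and 1.31% for Ifitm1, Ifitm2, Ifitm3 and Mcpt8. The 1% of cells with most UMIs of a gene held 100% of KO and 86.1% of WT UMIs for Ifitm1, 88.9% and 83.3% for Ifitm2, 100% and 82.1% for Ifitm3, and 89.7% of WT UMIs for Mcpt8. Without the deepest 3%, the 10 cells with most held 64.3% of KO and 38.6% of WT Ifitm2 UMIs, 50.2% of WT Ifitm1 UMIs and 78.5% of KO Ifitm3 UMIs.

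The share of Ifitm1 carriers with Ifitm2 was 20% for KO and 18.2% for WT cells, and 60.0% and 57.8% with at least 2 UMIs of both. That of Ifitm3 carriers with Ifitm2 was 60.0% for KO and 84.4% for WT cells at 2 UMIs, and WT Mcpt8 carriers then had Ifitm2 in 66.7% and Ifitm1 in 58.3%. Without the deepest 3%, the WT shares were 9.28% of Ifitm1 and 20.7% of Ifitm3 carriers with Ifitm2, and 20% and 11.1% of Mcpt8 carriers with Ifitm2 and Ifitm1. With 2 basophil markers in place of 3, 1 KO and 5 WT carriers passed. The genes lower in KO cells by 2-fold or more numbered 76, against 46 with 5 CPM added, 132 at 50 UMIs and 148 with no UMI minimum, and those higher numbered 118, against 179 and 217 under the same minimums. No paired analysis was possible because each genotype had 1 library. The number of deep cells limits precision: 1 KO cell decides the KO value of Mcpt8, and 8 KO cells had at least 1% of Gzmc to Gzmg UMIs.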
